A study of Mus musculus with 9 samples.

Results

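Glutathione transferases, aldehyde dehydrogenases, aldo-keto reductases and cytochromes P450 are the enzymes with which cells oxidize, reduce and conjugate reactive, lipid-derived and foreign molecules. Expression of these families was compared in stroma of mouse prostates with invasive cancer and with prostate intraepithelial neoplasia (PIN), the lesion that precedes invasion. Members were all genes whose symbol in the platform's probe table began with Gst, Mgst, Aldh, Akr, Cyp or Ugt and the letter or digit that follows these names in the families, whatever their values. The rule found 36 of the 8146 genes that the arrays represented with clones of a single symbol: 6 soluble and 2 microsomal glutathione transferases, 10 aldehyde dehydrogenases, 6 aldo-keto reductases and 12 cytochromes P450. A total of 43 spotted cDNA clones represented them, 1 each for 30 genes and several for the other 6. All 36 had enough values to be tested. A further 9 clones were assigned by the table to several genes of these families at once and are described apart, under no single gene's name. The UDP-glucuronosyltransferases were represented only in this way.

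All samples came from male FVB mice carrying the CR2-TAg transgene, in which regulatory elements of the cryptidin-2 gene direct SV40 large T antigen to neuroendocrine cells of the prostate, so tumor and stroma arise in the same gland while the transgene acts in another cell type. Stroma with PIN was laser-microdissected from mice 10 weeks old (3 arrays, replicates 2, 3 and 4) and stroma with invasive cancer from mice 24 weeks old (6 arrays, replicates 1 to 6), with 1 mouse per array. Stage and age therefore cannot be told apart, and no array of a mouse without the transgene was used. Every array set its sample, labeled with Cy5, against the same pool of 4 PIN samples, labeled with Cy3. The pool's other PIN sample has an array that was not analysed here. Each value is the log2 of the sample's signal over the pool's, so that 0 means equal signal, and differences are invasive minus PIN. Ratios give no level, so genes were not ranked against each other by abundance, and whether a cell type's markers were present at all cannot be read from them. In dissected tissue, fewer cells of a type and less RNA per cell cannot be told apart.

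Each family has its own chemistry. Glutathione transferases join the tripeptide glutathione to electrophiles, among them the aldehydes released when membrane lipids are oxidized. Aldehyde dehydrogenases oxidize aldehydes to acids, including retinaldehyde to retinoic acid, whereas aldo-keto reductases reduce aldehydes and ketones, among them steroids such as dihydrotestosterone in the prostate. Cytochromes P450 insert oxygen into sterols, steroids, fatty acids and drugs. UDP-glucuronosyltransferases attach a sugar acid that makes the products easier to excrete.

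PIN replicate 4 stood apart from the other PIN arrays, and invasive replicate 3 from some of the invasive arrays. Over all clones, PIN replicates 2 and 3 correlated with each other at r = 0.672, while PIN replicate 4 correlated with them at 0.176 and 0.189 and with the invasive arrays at 0.218 to 0.293. The invasive arrays correlated among themselves at 0.256 to 0.769, and with PIN replicates 2 and 3 at 0.260 to 0.529. Invasive replicate 3 correlated with invasive replicates 2, 5 and 6 at 0.338, 0.307 and 0.256, and with PIN replicates 2 and 3 at 0.529 and 0.436. The median log2 ratio of 9 epithelial markers was 0.82 on PIN replicate 4, against -1.32 and -1.58 on the other PIN arrays and -1.65 to -0.54 on the invasive arrays. For many results that rest on PIN replicate 4 or invasive replicate 3, values without that array are given. For others the array is only named. Other marker lists differed between the groups too. The median of 3 macrophage markers lay between 1.06 and 3.16 on the invasive arrays and between -0.52 and 0.54 on the PIN arrays, and all 3 markers were higher. Among 5 smooth muscle markers 3 were lower, with medians of -3.91 to -0.25 and of -0.58 to 0.40. Among 8 fibroblast markers 3 were higher, with medians of 0.16 to 1.61 and of -0.62 to 0.22. Markers that passed numbered 2 of 6 for endothelium, 2 of 6 for adipocytes and 1 of 5 for neuroendocrine tumor, all higher. For epithelium 1 higher and 1 lower of the 9 passed. Of all genes tested, 5.64% passed. Invasive replicate 3 had the invasive value closest to the PIN arrays in the macrophage, smooth muscle and fibroblast medians, at 1.06, -0.25 and 0.16. The part of these cell types in the results below was not tested.

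Of the 36 genes, 5 differed between invasive and PIN stroma by limma, with 0.15 as the threshold on the adjusted p, which was the study's own rate of false discoveries (Benjamini-Hochberg adjustment over all genes). Aldh3b1 and Cyp7a1 were higher in invasive stroma, and Gsta4, Aldh7a1 and Aldh2 were lower. Of all 8106 genes tested, 5.64% passed the same test, 3.75% with higher and 1.89% with lower values in invasive stroma. At an adjusted p under 0.05, no member passed, against 0.938% of all genes, and at an unadjusted p under 0.05, 9 members passed, against 15.0% of all genes. Without invasive replicate 3, 896 genes (11.1% of all tested) and 8 members passed, the original 5 among them. The equal-variance test that the methods name passed no member at either adjusted threshold. For 6 members (Aldh3b1, Gsta4, Cyp7a1, Aldh7a1, Cyp2s1 and Gstcd) the invasive and PIN arrays did not overlap, against 7.85% of all genes. The median difference over the members was 0.00, beside 0.02 over all genes, with 18 positive and 18 negative values between -1.69 and 1.17. The families thus did not move in one direction, and 19 of the 36 differences were under 0.25 in size.

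**Figure D1:**
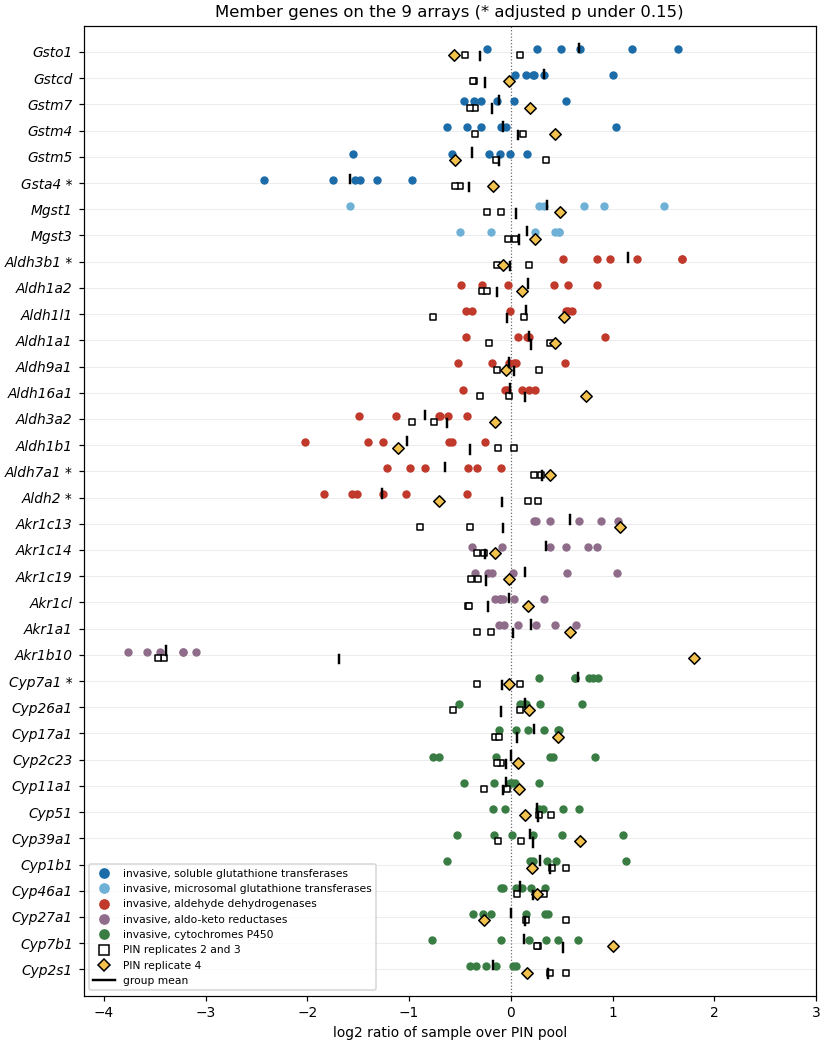
Log2 ratio of sample over PIN pool (x axis) for the 36 member genes (y axis, by family) on each of the 9 arrays, with filled circles for 6 invasive arrays, open squares for PIN replicates 2 and 3, diamonds for PIN replicate 4 and vertical bars for group means. The 5 genes with an asterisk passed the test, and Akr1b10 lies between -3.76 and -3.10 on 8 arrays and at 1.80 on PIN replicate 4.

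**Figure D2:**
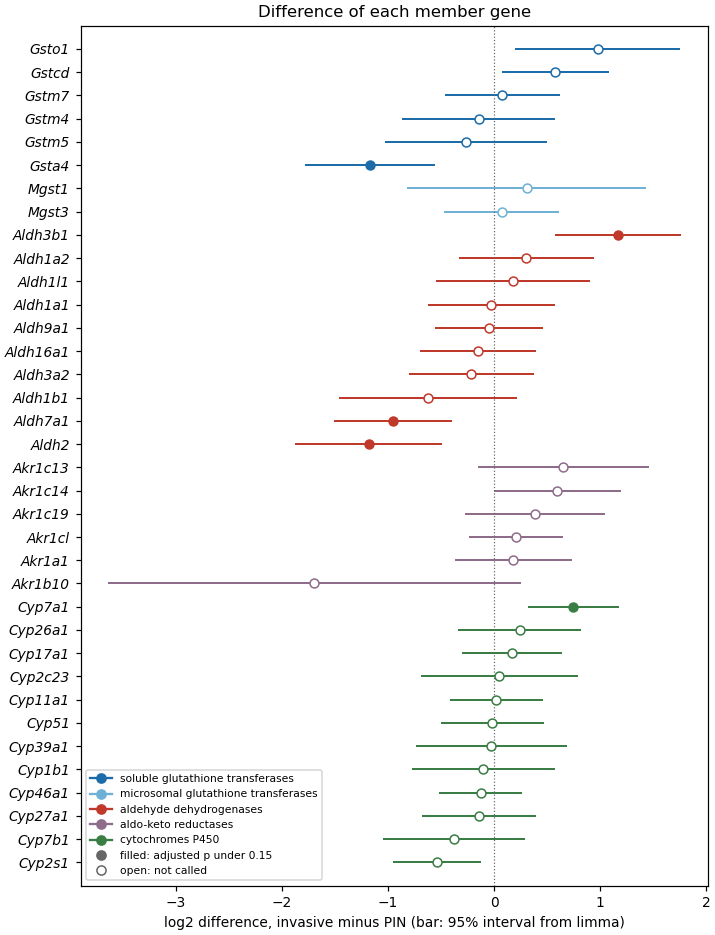
Difference between invasive and PIN stroma on the log2 scale (x axis) for each of the 36 member genes (y axis, colored by family), with its 95% interval from limma as a bar. Filled points are the 5 genes with an adjusted p under 0.15, of which Aldh3b1 and Cyp7a1 lie to the right of 0 and Gsta4, Aldh7a1 and Aldh2 to the left.

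Many genes of these families are known targets of the transcription factor Nrf2, which binds the antioxidant response element, and of the aryl hydrocarbon receptor, which binds the xenobiotic response element. The 250 bases before the RefSeq start (build GRCm38.p6) were searched on both strands for the core letters of the first, TGACNNNGC, and of the second, GCGTG. The table held 34 promoters of 28 member genes. The first core was found in 6 of these 34 (17.6%), beside 10.2% of all 32851 promoters, and the second in 9 of 34 (26.5%), beside 28.2%. Promoters with the first core belonged to Akr1cl, Aldh1a2, Aldh9a1, Gstm5, Gstm7 and Mgst1. Of the genes that passed the test, Aldh3b1 was searched, and Gsta4, Cyp7a1, Aldh7a1 and Aldh2 were not. A match is a description of letters and not of a bound site. The sequences printed are those of a soluble and a microsomal glutathione transferase with the antioxidant core, Gstm5 and Mgst1, and, for contrast, those of the aldehyde dehydrogenase that was higher in invasive stroma and of the reductase with the widest spread, both without either core. Capitals mark the matches. In Gstm5 (chr3:107895604-107895853, plus strand) the second xenobiotic core lies inside the antioxidant core. Mgst1 (chr6:138140277-138140526, plus strand) has a second start in the table, without either core. Aldh3b1 lies at chr19:3929779-3930028 on the minus strand and Akr1b10 at chr6:34383997-34384246 on the plus strand.
Gstm5: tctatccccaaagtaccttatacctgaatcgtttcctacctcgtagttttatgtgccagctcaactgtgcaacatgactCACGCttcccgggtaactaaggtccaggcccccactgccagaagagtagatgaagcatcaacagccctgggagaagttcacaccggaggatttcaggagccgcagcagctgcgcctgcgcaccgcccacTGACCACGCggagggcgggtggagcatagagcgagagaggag
Mgst1: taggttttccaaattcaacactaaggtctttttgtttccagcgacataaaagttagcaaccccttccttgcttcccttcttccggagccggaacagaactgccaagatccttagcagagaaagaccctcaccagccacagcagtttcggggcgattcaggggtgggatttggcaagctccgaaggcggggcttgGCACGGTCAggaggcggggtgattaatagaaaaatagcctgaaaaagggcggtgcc
Aldh3b1: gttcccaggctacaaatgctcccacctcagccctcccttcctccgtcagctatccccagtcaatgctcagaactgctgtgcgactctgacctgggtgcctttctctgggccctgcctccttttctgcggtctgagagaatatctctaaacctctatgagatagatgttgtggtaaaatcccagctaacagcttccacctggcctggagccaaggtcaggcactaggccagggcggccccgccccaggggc
Akr1b10: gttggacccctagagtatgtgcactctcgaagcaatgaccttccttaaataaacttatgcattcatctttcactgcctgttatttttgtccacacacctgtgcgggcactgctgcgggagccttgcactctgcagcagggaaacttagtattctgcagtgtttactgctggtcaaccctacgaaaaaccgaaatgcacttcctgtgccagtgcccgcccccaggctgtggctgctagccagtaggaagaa

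Among the soluble glutathione transferases, Gsta4, an alpha-class enzyme that conjugates the lipid peroxidation product 4-hydroxynonenal, was lower in invasive stroma. Its log2 ratio was -2.42 at the lowest, -1.51 at the median and -0.97 at the highest of the 6 invasive arrays, and -0.50, -0.55 and -0.17 on PIN replicates 2, 3 and 4. Every invasive array lay below every PIN array. The difference was -1.17 ± 0.28 (SE), 2.25-fold lower, with an adjusted p of 0.0620 by limma. Without PIN replicate 4 it was -1.05 with an adjusted p of 0.147, and without PIN replicate 2 or 3 the adjusted p rose to 0.229 and 0.184.

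Gsto1, an omega-class enzyme that also reduces dehydroascorbate, had an opposite difference of 0.98 ± 0.35 (SE) that did not pass (adjusted p = 0.205, limma). Its ratios ran from -0.23 through a median of 0.59 to 1.64 on the invasive arrays and were -0.45, 0.09 and -0.56 on the PIN arrays, so that the groups overlapped only in that invasive replicate 3 lay below PIN replicate 3. Without invasive replicate 3 it passed (adjusted p = 0.0601, limma), as did 11.1% of all genes in that fit. Gstcd, named for a glutathione transferase C-terminal domain, had ratios of 0.04, 0.22 and 1.00 at the lowest, median and highest invasive array and of -0.36, -0.37 and -0.02 on the PIN arrays. All invasive values lay above the PIN values, and the difference of 0.58 ± 0.23 (SE) did not pass (adjusted p = 0.245, limma).

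The mu class, which takes part in conjugation of a wide range of electrophiles, was represented by clones of Gstm5, Gstm4 and Gstm7 and by 5 clones that the table assigned to 4 other mu-class genes at once. Gstm5 had a difference of -0.27 and, named here after their values were seen, Gstm4 had one of -0.15 and Gstm7 one of 0.08, each with overlapping groups. The 5 shared clones did not give one answer, with differences of -2.09, -1.62, -0.72, -0.39 and 0.70. Members of this class have near-identical transcripts that can hybridize to each other's clones, so the gene behind any of these values is uncertain. On the clone with the widest difference the ratios were -3.59, -1.76 and -0.45 at the lowest, median and highest invasive array and -0.21, -0.54 and 1.06 on the PIN arrays. The groups overlapped only in that invasive replicate 3 lay above PIN replicate 3, and the adjusted p over clones was 0.183 (limma). None of the 9 clones of several genes passed, against 2.16% of all 17207 clones tested. PIN replicate 4 had the highest value on 4 of the 5 mu-class clones, and without it the differences were -1.61, -1.12, 0.02, 0.22 and 0.53. The pi-class clone, assigned to 3 genes at once, had a difference of -0.37.

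The microsomal transferases belong to a separate, membrane-bound family. Mgst1, which is abundant in the endoplasmic reticulum and outer mitochondrial membrane, varied more among invasive samples than between the groups. Its ratio was -1.58 on invasive replicate 3 and between 0.28 and 1.505 on the other invasive arrays, with a median of 0.52 over all of them. On the PIN arrays it was -0.23, -0.10 and 0.48. The difference was 0.31 with a 95% interval of -0.81 to 1.43. Mgst3 had a difference of 0.07 with an interval of -0.46 to 0.60. Ptges, the inducible glutathione-dependent prostaglandin E synthase of the same membrane family, is not a member by name. Its ratio was between -2.81 and -1.64 on the invasive arrays, -1.90 and -2.07 on PIN replicates 2 and 3 and 1.59 on PIN replicate 4. The difference of -1.42 (adjusted p = 0.322, limma) was -0.23 without PIN replicate 4.

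The aldehyde dehydrogenases held 3 of the 5 genes that passed. Aldh3b1, which oxidizes medium- and long-chain aldehydes of oxidized lipids, was the only one with higher values in invasive stroma. Its ratios were 0.51, 1.10 and 1.69 at the lowest, median and highest invasive array and -0.14, 0.17 and -0.08 on the PIN arrays. The groups did not overlap. The difference was 1.17 ± 0.27 (SE), 2.25-fold, with an adjusted p of 0.0602 and a 95% interval of 0.58 to 1.75 (limma). It was 1.14 without PIN replicate 4, and the adjusted p was 0.249 without PIN replicate 2 and 0.171 without PIN replicate 3.

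The mitochondrial enzymes Aldh2, which clears acetaldehyde and 4-hydroxynonenal, and Aldh7a1, a lysine catabolism enzyme that is also found in the cytosol, were lower. Aldh2 had ratios of -1.84, -1.39 and -0.43 at the lowest, median and highest invasive array and of 0.17, 0.27 and -0.70 on the PIN arrays. PIN replicate 4 lay within the range of the invasive arrays, while PIN replicates 2 and 3 lay above it. The difference was -1.18 ± 0.31 (SE), 2.27-fold lower (adjusted p = 0.0971, limma), and -1.49 without PIN replicate 4. Aldh7a1 had ratios of -1.22, -0.63 and -0.10 in invasive and of 0.23, 0.29 and 0.38 in PIN stroma. Its groups did not overlap and the PIN arrays lay close together. The difference was -0.95 ± 0.25 (SE), 1.94-fold lower, with an adjusted p of 0.0941 (limma). It did not pass without PIN replicate 2, 3 or 4 or invasive replicate 4, where its adjusted p was 0.262, 0.251, 0.172 and 0.179. Aldh2 passed in 3 of the 9 fits that each left out 1 array, and missed the threshold without PIN replicate 2 (0.333) or 3 (0.318) and without invasive replicate 2, 4, 5 or 6 (adjusted p of 0.180, 0.169, 0.169 and 0.163).

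Aldh1b1, a mitochondrial relative of Aldh2, had a difference of -0.62 that did not pass (adjusted p = 0.494, limma), with -2.03 to -0.25 on the invasive arrays and -0.12, 0.04 and -1.11 on the PIN arrays. As for Aldh2, PIN replicate 4 was the lowest of the PIN arrays. Without that array the difference of Aldh1b1 was -0.98 (adjusted p = 0.282, limma). The other 6 aldehyde dehydrogenases, named here after their values were seen, had differences between -0.22 and 0.31. They included Aldh1a1 (-0.03, with a 95% interval of -0.62 to 0.57) and Aldh1a2 (0.31, with an interval of -0.32 to 0.94), both of which make retinoic acid. Aldh3a2, the fatty aldehyde dehydrogenase, was at -0.22, Aldh1l1 of folate metabolism at 0.18, Aldh9a1 at -0.05 and Aldh16a1 at -0.15. The retinoid pathway list gave no call either way among 10 genes tested, against 5.64% of all genes. Its lowest p belonged to Retsat, a retinol saturase, at -0.63 (adjusted p = 0.347, limma) and -0.15 without PIN replicate 4.

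No aldo-keto reductase passed, while 5 of the 6 had positive differences, beside 4216 of all 8106 genes tested. Akr1c14, the 3-alpha-hydroxysteroid dehydrogenase that inactivates dihydrotestosterone, had ratios of -0.38, 0.46 and 0.85 at the lowest, median and highest invasive array and of -0.27, -0.34 and -0.15 on the PIN arrays. With its 2 clones averaged, the lowest of the invasive arrays lay below all PIN arrays and the rest lay above them. The difference was 0.60 ± 0.27 (SE, adjusted p = 0.327, limma), and its 2 clones gave 0.64 and 0.55. Array by array the clones differed. On the first, invasive replicates 3, 4 and 5 (-0.02, 0.0007 and -0.19) lay below PIN replicate 4 (0.03). Invasive replicate 4 was at 1.52 on the second clone. Invasive replicate 6 was at 0.96 on the first and at -0.20 on the second. Without invasive replicate 3, the averaged value of Akr1c14 passed (adjusted p = 0.0988, limma), as did 11.1% of all genes in that fit.

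Akr1c13, a related hydroxysteroid dehydrogenase, depended on PIN replicate 4. Its ratio was 0.23, 0.53 and 1.06 at the lowest, median and highest invasive array, -0.40 and -0.89 on PIN replicates 2 and 3, and 1.07 on PIN replicate 4. All invasive arrays lay above PIN replicates 2 and 3, and all below PIN replicate 4. With 9 arrays the difference was 0.65 ± 0.37 (SE, adjusted p = 0.439), and without PIN replicate 4 it was 1.23 and passed (adjusted p = 0.0791, limma). Akr1c19 had a difference of 0.39, and the other reductases, Akr1cl and Akr1a1, named here after their values were seen, had differences of 0.21 and 0.18.

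Akr1b10, an aldose reductase relative that reduces retinaldehyde and lipid aldehydes, showed the widest spread of all members. Its ratio was -3.76, -3.34 and -3.10 at the lowest, median and highest invasive array, -3.41 and -3.46 on PIN replicates 2 and 3, and 1.80 on PIN replicate 4. Only PIN replicate 4 was high, by 4.90 above the next array, which was the second largest such gap among the 8106 genes. PIN replicate 4 stood over 1 log2 unit above every other array for 125 genes, 1.54% of those tested, and Akr1b10 was the only member among them. Had each of 4 samples given an equal part to the pool, a transcript present in 1 sample alone would have a log2 ratio of 2.0 there. The shares of the pool are not given in the sources used here. The difference of -1.69 ± 0.89 (SE, adjusted p = 0.404) became 0.05 without PIN replicate 4.

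**Figure D3:**
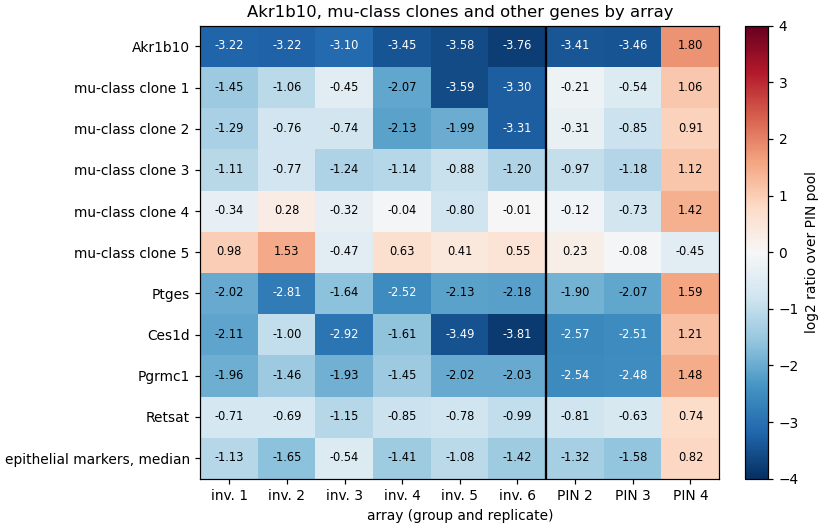
Log2 ratio over the PIN pool (color and printed value) on each of the 9 arrays (columns, invasive left of the line) for Akr1b10, the 5 clones shared by mu-class glutathione transferases in order of their difference, and Ptges, Ces1d, Pgrmc1, Retsat and the median of 9 epithelial markers. In PIN replicate 4 all but mu-class clone 5 are above 0.

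The same array pattern appeared in some genes near these families and not in others, such as Xdh and Ephx1, which are described below. Besides Ptges and Retsat, the carboxylesterase Ces1d and the heme-binding P450 partner Pgrmc1, both named after their values were seen, were at 1.21 and 1.48 on PIN replicate 4. On the other arrays Ces1d lay between -3.81 and -0.999 and Pgrmc1 between -2.54 and -1.45. The median of the 9 epithelial markers was positive on this array alone, and 4 of them stood over 1 log2 unit above every other array there. Single markers, named after their values were seen, differed from the median. Krt7 was at 0.47 to 1.96 on the invasive arrays and at 0.55 on PIN replicate 4. Epcam was at 1.36 on invasive replicate 3 and at 1.43 on PIN replicate 4. The part of epithelial RNA in the values of Akr1b10 was not tested.

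**Figure D4:**
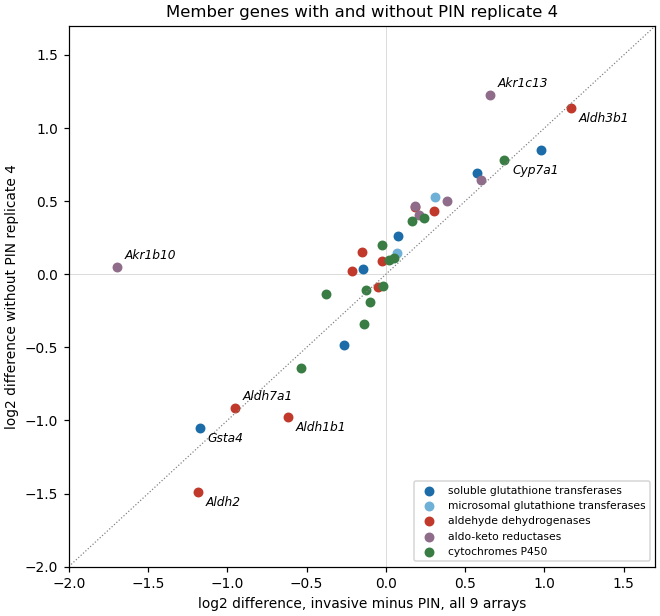
Difference between invasive and PIN stroma on the log2 scale with all 9 arrays (x axis) and without PIN replicate 4 (y axis) for the 36 member genes, colored by family, with the line of equality dotted. Akr1b10 moves from -1.69 to 0.05 and Akr1c13 from 0.65 to 1.23.

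Of the 12 cytochromes P450, 1 passed. Cyp7a1, the rate-limiting enzyme of bile acid synthesis and known as a liver gene, was higher in invasive stroma. Its ratios were 0.27, 0.70 and 0.86 at the lowest, median and highest invasive array and -0.33, 0.09 and -0.02 on the PIN arrays. With its 2 clones averaged, the groups did not overlap. The difference was 0.75 ± 0.19 (SE), 1.68-fold, with an adjusted p of 0.0886 (limma). Its 2 clones gave 0.89 and 0.61, neither of which passed when clones were tested singly (adjusted p = 0.209 and 0.331, limma). The groups overlapped on the first clone, where invasive replicate 3 (0.60) lay below PIN replicate 3 (0.70), and not on the second. Invasive replicate 2 was the highest invasive array on the first clone (1.67) and the lowest on the second (-0.13). The averaged value did not pass without PIN replicate 2 or 3 (adjusted p = 0.338 and 0.193, limma). Nor did it pass without invasive replicate 2 or 4 (adjusted p = 0.169 and 0.157, limma) or after quantile normalization between arrays. Of 6 hepatocyte markers none passed, and their median was -0.05 to 0.52 on the invasive and -0.11 to 0.06 on the PIN arrays. All 6 had positive differences. The largest, 1.23, was that of Ahsg (adjusted p = 0.186, limma), named after its value was seen. Whether the spots of Cyp7a1 were above background is unknown, since no spot signals were used.

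Cyp2s1, a P450 of epithelia that metabolizes retinoids and eicosanoids, had the largest negative P450 difference. Its ratios were -0.40, -0.19 and 0.06 at the lowest, median and highest invasive array and 0.38, 0.54 and 0.16 on the PIN arrays. The groups did not overlap, although the difference of -0.54 ± 0.19 (SE) did not pass (adjusted p = 0.182, limma). Without invasive replicate 3 it passed (adjusted p = 0.115, limma), as did 11.1% of all genes in that fit. Cyp7b1, which 7-hydroxylates oxysterols and an estrogenic androgen metabolite in the prostate, had a difference of -0.38. Cyp26a1, which degrades retinoic acid, had one of 0.24, with an interval of -0.33 to 0.82.

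The other 8 cytochromes P450, named here after their values were seen, had differences between -0.14 and 0.17. The steroid-forming Cyp11a1 was at 0.02 and Cyp17a1 at 0.17, and the cholesterol synthesis enzyme Cyp51 was at -0.02, with a 95% interval of -0.49 to 0.46. The sterol hydroxylases Cyp27a1, Cyp46a1 and Cyp39a1 were at -0.14, -0.13 and -0.03. Cyp1b1, a dioxin-inducible enzyme that hydroxylates estrogens, was at -0.10 and Cyp2c23, an arachidonic acid epoxygenase, at 0.05. The intervals of these 8 genes reached from -0.76 to 0.78. Clones assigned to several Cyp2d or several Cyp2j genes had differences of -0.32 and 0.19.

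A single clone, assigned to 8 genes of the Ugt1a cluster, which share their last exons, represented the UDP-glucuronosyltransferases. Its ratio was -0.06, 1.39 and 2.82 at the lowest, median and highest invasive array and -0.80, 0.06 and 0.38 on the PIN arrays. The lowest invasive array, replicate 3, lay within the PIN range and the others lay above it. The difference of 1.53 ± 0.51 (SE) was the widest positive one among the clones of these families and did not pass (adjusted p = 0.229 over clones, limma). Without PIN replicate 4 it was 1.79.

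Genes that supply or regulate these enzymes were counted from lists. Of 11 genes for glutathione synthesis and use, 12 P450 electron carriers and xenobiotic receptors, 13 other dehydrogenases and conjugating enzymes and 12 sterol synthesis genes, none passed. In these lists 1, 2, 3 and 1 genes had an unadjusted p under 0.05 (limma), against 15.0% of all genes. Of 14 genes of the Nrf2 pathway, 2 passed, both higher in invasive stroma, against 5.64% of all genes. Hmox1, the heme oxygenase that macrophages also express strongly, had ratios of 0.80, 1.25 and 1.37 at the lowest, median and highest invasive array and of 0.12, 0.52 and -0.32 on the PIN arrays. The groups did not overlap, with a difference of 1.10 ± 0.22 (SE, adjusted p = 0.0431, limma). Ftl1, the ferritin light chain, had ratios of 0.72, 1.52 and 2.30 in invasive and of -0.13, -0.07 and 0.46 in PIN stroma. Its groups did not overlap either, and the difference was 1.42 ± 0.31 (SE, adjusted p = 0.0565, limma). Hmox1 did not pass without PIN replicate 2 (adjusted p = 0.177), nor Ftl1 without PIN replicate 2 or 3 (0.247 and 0.201, limma). The median over the 14 genes was 0.09, with 8 positive and 6 negative differences, the lowest being that of Ephx1 at -0.88.

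Single genes of the other lists lay on either side of 0 without passing. Ephx1, the microsomal epoxide hydrolase that acts after the cytochromes P450, was on the P450 list and on the Nrf2 list as well. Its difference was -0.88 (adjusted p = 0.167, limma), with -1.48 to 0.13 on the invasive arrays and 0.13, 0.33 and 0.15 on the PIN arrays. Only invasive replicate 1 reached the PIN values. Xdh, the xanthine dehydrogenase, had a difference of 1.17 (adjusted p = 0.156, limma). Its ratio was -0.44 on invasive replicate 3, 0.90 to 1.87 on the other invasive arrays and -0.33, -0.30 and -0.12 on the PIN arrays. Nsdhl, a sterol synthesis enzyme, had one of -0.55 (adjusted p = 0.246, limma).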

How the data were processed

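Laser-microdissected prostate stroma of 6 mice with invasive cancer and 3 with PIN was measured on spotted cDNA arrays of 2 colors. The authors amplified the RNA, corrected intensity-dependent bias within print-tip groups of every array with a lowess curve, subtracted no background, and deposited log2 ratios of sample (Cy5) over the pool of 4 PIN samples (Cy3). Dyes were not swapped. Each PIN sample was also part of the pool, which can draw PIN values toward 0. Of 17664 clones, 457 held no value, and each array had 17189 to 17206 values. Only log2 ratios were used, so the signal over background is unknown, and the number of arrays limits the precision. The platform's probe table gave 1 symbol for 12563 clones, several for 412 and none for 4689. Clones of 1 symbol were averaged per array, and no name was taken from a clone with several. All 36 members matched a RefSeq gene of the same symbol.

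A gene was tested where 4 or more invasive arrays and 2 or more PIN arrays had a value. The test was that of limma 3.58.1 (lmFit, eBayes, two-sided) in R 4.3.3, without further normalization. The p-values were adjusted by Benjamini-Hochberg over all 8106 genes, or over 17207 clones for single clones. The scripts were tested on simulated data. The text names every member that passed, the 4 members of lowest p in each family, and from each pathway list the 3 passing genes of lowest p or else the 1 of lowest p. Others are named as chosen after their values were seen. The members and lists were chosen with earlier results of these data known. No test of the lists as sets was made. Replicates were separate mice. Promoter sequences were RefSeq's (GRCm38.p6).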

Additional observations from a re-analysis of the deposited data

Results flagged for a closer look

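In 3 of 52 groups of 6 invasive arrays examined, 1 array stood apart from the others by more than Dixon's 95% critical value for the gap over the range. Chance alone gives about 1 such group in 20. Gstcd was at 1.00 on invasive replicate 2, against 0.32 or less on the other 5. Gstm4 was at 1.04 on invasive replicate 4. Hmox1 was at 0.80 on invasive replicate 3, below the other 5 invasive arrays and above all PIN arrays.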

How the results depend on the processing

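With 3 PIN arrays, the counts moved more than the differences. All 5 genes that passed kept their direction in each alternative run. At an adjusted p under 0.05, 76 genes passed, 0 of them members (9 members had an unadjusted p under 0.05). The equal-variance test of the methods passed 54 genes and 0 members, array weights passed 1627 and 11, the invasive arrays set against 0, the pool, passed 2595 and 11, and the clone of lowest p per gene passed 267 and 3. The other normalizations, filters and robust variance estimates, and the median of clones, stayed within 1.5 times of 457 genes and 5 members. Leaving out each array in turn gave 37 (without PIN replicate 2) to 896 genes (without invasive replicate 3) and 0 (without PIN replicate 2 or 3) to 8 members (without invasive replicate 3). Genes fell to 91 without PIN replicate 3 and to 222, 201, 219 and 268 without invasive replicates 2, 4, 5 and 6, and members to 3 and 2 without invasive replicates 2 and 4. Single differences of named genes and clones changed their side of the threshold 41 times to passing and 37 times to not passing, stayed 936 times, and 8 others moved by more than the replicate spread, among them Akr1b10, Ptges and Retsat without PIN replicate 4. The cause was not tested. Without PIN replicate 4, 400 genes and 5 members passed, 4 of them among the original 5.

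Same-numbered invasive and PIN samples did not deviate together (r of -0.09, -0.10 and -0.02 over genes for numbers 2, 3 and 4) and no PIN sample correlated best with its own number, so the numbers name the samples only. With the replicate number as a block, 90 genes and 0 members passed.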
